A study of Mus musculus with 8 samples.

Results

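The genes of glucose uptake, glycolysis, lactate handling and pyruvate metabolism were compared between Paneth cells from transgenic mice that the series describes as making diphtheria toxin in those cells (TG) and from wild-type mice (WT). The set held 42 genes, found by symbol among the 55414 Ensembl gene IDs of the count table, and ran from the glucose transporters through each step to pyruvate, on to lactate or into the mitochondrion, and back through gluconeogenesis. Each group had 4 bulk RNA-seq libraries, made from Paneth cells sorted by flow cytometry (FACS) out of the small intestine. The mice of the wider study were C57BL/6J. The genotype is given as DT TG for the first group and as a wild-type control for the second, with no other allele or agent named for either. The study, which pools this series with others, states that its samples came from individual mice. No source used here gives the promoter that drives the toxin or the age of the mice, and the toxin transcript was not analysed here. The series concerns purified cells after depletion of mature Paneth cells, so the TG libraries come from the cells that were still sorted as Paneth cells.

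Glycolysis splits glucose into pyruvate in the cytosol. Pyruvate is then either reduced to lactate, which leaves the cell with a proton through monocarboxylate transporters, or carried into the mitochondrion, where the pyruvate dehydrogenase complex turns it into acetyl-CoA. The pyruvate dehydrogenase kinases switch that complex off and its phosphatases switch it on, and the hypoxia-inducible factor HIF-1 is a known activator of many glycolytic genes. Paneth cells are secretory cells at the crypt base, and their supply of lactate to neighbouring stem cells has been described.

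Of the 42 genes, 38 were abundant enough to test, 5 were higher in TG and 8 were lower. The lower genes were Slc2a1, Hk2, Aldoa, Gapdh, Pgk1, Eno1, Slc16a3 and Mpc2, that is, glucose uptake, its first phosphorylation, 4 enzymes of the glycolytic chain, a lactate exporter and a subunit of the pyruvate carrier. The higher genes were Pdk1, Pdk2, Pdk4, Fbp1 and Pck1, that is, 3 kinases that inhibit pyruvate dehydrogenase and 2 gluconeogenic enzymes. Calls were made with edgeR's quasi-likelihood test at a Benjamini-Hochberg adjusted p below 0.05 over all 11929 genes tested. The share called was 34.2% of the tested members, against a background of 17.9% of all genes (8.26% higher and 9.65% lower). The median log2 fold change, TG over WT, was -0.13 over the tested members and 0.01 over all genes. TG and WT ranges were apart for 13 tested members, 4 higher and 9 lower, where 22.0% of all genes had ranges that did not overlap (10.0% higher and 12.0% lower). Of the tested members, 36 passed the filter on low counts in both groups, and 4 of these were called higher and 7 lower. Slc16a3 passed through its level in WT and Pdk4 through its level in TG, so each of these had to differ. Scaling by total counts alone, in place of TMM factors, moved the median of all genes to 0.12 and the share of higher calls among all calls from 46.1% to 75.0%. Under that scaling Pdk2, Pdk4 and Pck1 were called higher and Slc2a1, Hk2 and Slc16a3 lower, so those 6 calls held under both. The estimates of Gpi1, Pfkfb3, Mpc1, Pdha1, Pdhb, Dlat, Pdk3 and Pdp2, all uncalled, turned from negative to positive under it.

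**Figure D1:**
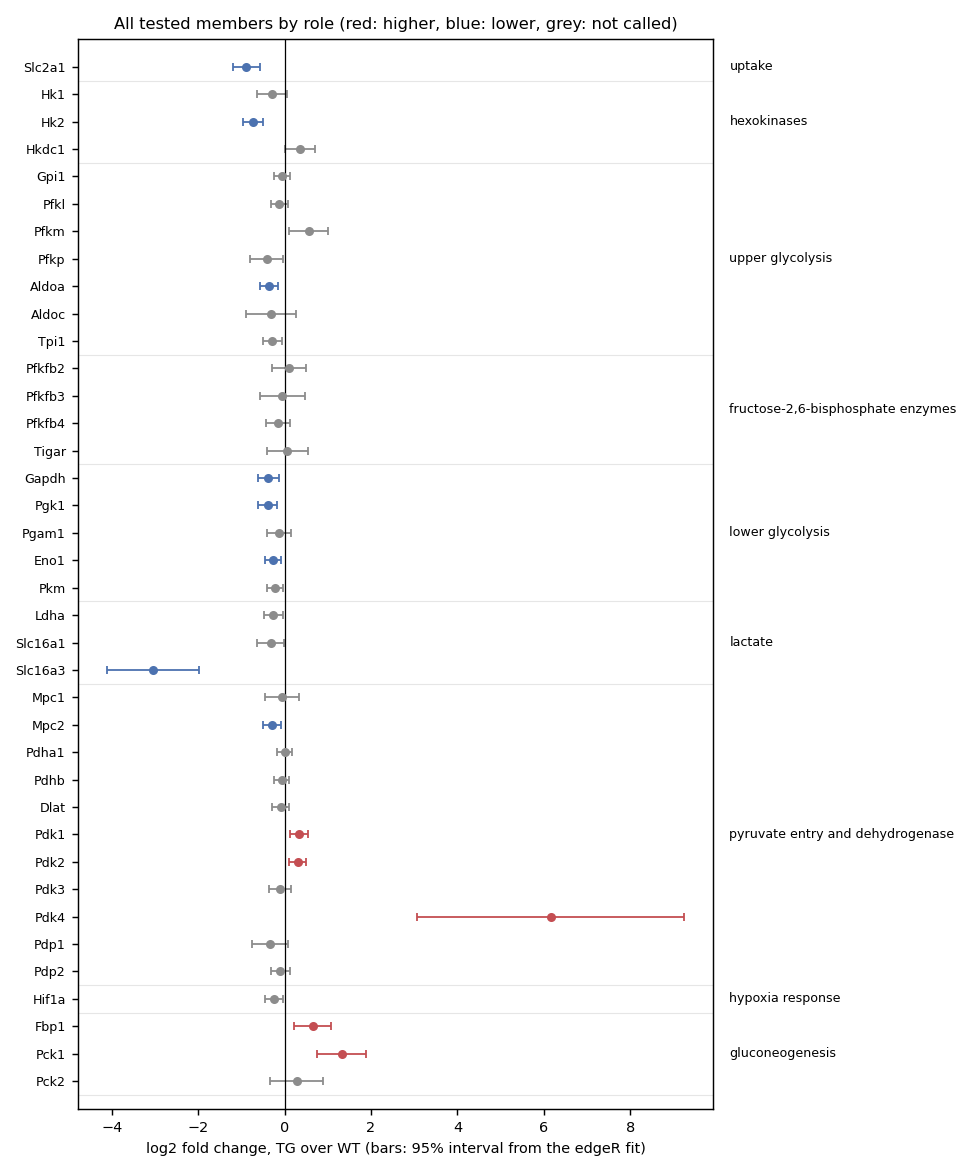
Log2 fold change of TG over WT (x axis) for each of the 38 tested members (y axis), grouped by role, with points for the edgeR estimate and bars for its 95% interval. Slc16a3 at -3.05 and Pdk4 at 6.16 stand far from the rest, and every tested gene of lower glycolysis lies below 0.

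Total counts ran from 13107397 to 16218434 per library, at which 3 counts are worth between 0.169 and 0.240 CPM (counts per 1e6 counts of the TMM-scaled library). Of the Paneth markers, 10 were tested, 1 had a positive estimate and 3 were called lower in TG (median log2 fold change -0.25). Their summed level was 372142 to 456701 CPM in TG and 353194 to 532610 CPM in WT. Lyz1, unlike most of them, was higher on average in TG, at 175230 CPM against 166391 CPM in WT. Markers of absorptive enterocytes were all higher in estimate (11 of 11 tested, median log2 fold change 1.60, 4 called higher), and their summed level was 496 to 672 CPM in TG and 329 to 432 CPM in WT. The share of counts from mitochondrially encoded genes was 1.15% to 1.53% in TG and 0.566% to 1.10% in WT, also without overlap. The 8 immune markers summed to 9.64 to 30.6 CPM in TG and 12.4 to 19.2 CPM in WT. Of these, 2 were at 0 in every library and 1 was abundant enough to test, Lyz2, with a log2 fold change of 0.43 that was not called. The 7 stromal markers summed to at most 0.967 CPM. Of 7 stem cell markers tested, 2 were higher and 1 was lower (median 0.13). The estimate was positive for 2 of 8 goblet (median -0.20), 5 of 8 proliferation (0.07), 3 of 4 tuft (0.07) and 1 of 4 enteroendocrine markers (-0.85). Replicates 1 and 2 of both groups held no counts of Y-linked genes and replicates 3 and 4 held 897 to 1564, so this property was balanced between the groups. In bulk RNA, fewer cells of a type and less RNA per cell cannot be told apart.

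Because HIF-1 acts on glycolytic genes through the core motif ACGTG or GCGTG, the promoters of the called genes were read for it. The windows run from 250 bases before to 50 bases after each RefSeq start site (build GRCm38.p6), with both strands searched, and 40 of the 42 genes had one. ACGTG stood in the windows of 6 of the 8 lower genes, 1 of the 5 higher genes and 13 of the 24 uncalled tested genes that had a window. It stood in 52.5% of all member windows and in 29.9% of those of the 9241 tested genes that had a window. The stretches around it are shown for the 5 lower genes in which it lies before the start and for Pdk2, the higher gene that has it, each written 5′ to 3′ along the gene with the motif (or its reverse complement, CACGT) in capitals. In Pdk2 the capitals mark CACGTG, the E-box, which contains ACGTG and was found in no window of the 8 lower genes.
Slc2a1, chr4:119108697-119108725 on the plus strand: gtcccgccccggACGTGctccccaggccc
Slc16a3, chr11:120949028-120949056 on the plus strand: caggcagcggtgACGTGcgcgggggacgt
Hk2, chr6:82774490-82774518 on the minus strand: aatgagcacatcCACGTcactgtccgggg
Aldoa, chr7:126799364-126799392 on the minus strand: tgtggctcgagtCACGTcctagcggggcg
Pgk1, chrX:106186938-106186966 on the plus strand: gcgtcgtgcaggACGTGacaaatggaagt
Pdk2, chr11:95041480-95041509 on the minus strand: ctcgaggagagcCACGTGtcgaagcgcaag
The motif shown lies 36 bases before the start in Slc2a1, 27 in Slc16a3, 52 in Hk2 and 150 in Pgk1, and a further match lies 14 bases before the start in Slc16a3, 226 in Hk2 and 131 in Pgk1. In Gapdh, the sixth lower gene, it lies past the start. With GCGTG counted as well, the core stood in 8 of 8 lower, 3 of 5 higher and 20 of 24 uncalled genes, and in 68.4% of the 9241 tested genes with a window, so the wider motif was common everywhere. The direct repeat DR1 (AGGTCA and AGGTCA with any base between them), bound by PPAR and related nuclear receptors, stood in 0 of the 40 member windows and in 0.0541% of those of the same 9241 genes. Only 5 of those genes held this exact repeat. A count of 0 in 40 windows was thus likely beforehand and tells nothing of these members. A match of letters is a description and says nothing of binding in these cells.

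Glucose enters through facilitative transporters, and Slc2a1 (GLUT1, ENSMUSG00000028645, chromosome 4, 118965908 to 118996365, plus strand, build GRCm39 for this and the gene positions that follow) was lower in TG. Its levels were 12.1, 10.6, 17.5 and 12.8 CPM in TG replicates 1 to 4 and 29.8, 23.0, 21.3 and 24.6 CPM in WT replicates 1 to 4. Every TG library lay below every WT library. The mean of 13.3 ± 2.97 CPM (SD, n = 4) in TG against 24.7 ± 3.69 CPM (n = 4) in WT gave a log2 fold change of -0.89 ± 0.15 (SE, 95% interval -1.21 to -0.57, edgeR adjusted p = 0.0022). The log2 fold change was -1.21 among the libraries without Y-linked counts and -0.59 among those with them, both from 1 edgeR fit with an interaction term, as are the values of this kind for the genes that follow. Slc2a3 (GLUT3), the neuronal-type transporter, had 0 counts in all 8 libraries, which bounds it at 3 counts per library, 0.169 to 0.240 CPM, for counting error only.

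Hexokinases trap glucose in the cell as glucose 6-phosphate, and the inducible isozyme Hk2 (ENSMUSG00000000628, chromosome 6, 82699740 to 82751469, minus strand) was lower in TG with the smallest p among the members. Hk2 stood at 35.5, 27.7, 36.4 and 27.9 CPM in TG and at 57.4, 55.5, 51.7 and 47.2 CPM in WT, with no overlap. The means were 31.9 ± 4.75 and 52.9 ± 4.51 CPM, a log2 fold change of -0.73 ± 0.11 (adjusted p = 0.0011), and WT exceeded TG 1.66-fold (95% interval 1.41 to 1.95). Without and with Y-linked counts the log2 values were -0.84 and -0.62. Hk1, the constitutive isozyme, stood at 14.0, 14.6, 14.3 and 14.9 CPM in TG and at 24.9, 18.1, 14.3 and 13.5 CPM in WT. TG libraries were close together while WT replicates 1 and 2 were high, and the difference of -0.29 ± 0.16 did not pass the test (adjusted p = 0.228). For Hk1 the log2 value was -0.59 without and 0.06 with Y-linked counts. Hkdc1, a hexokinase-like gene of epithelia, averaged 6.60 CPM in TG and 5.21 CPM in WT (log2 fold change 0.35 ± 0.16, adjusted p = 0.156).

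In the upper chain, which turns glucose 6-phosphate into 2 triose phosphates, 1 of 7 tested genes was called. Aldoa (ENSMUSG00000030695, chromosome 7, 126393822 to 126399923, minus strand), the aldolase that cleaves fructose 1,6-bisphosphate, stood at 140, 134, 164 and 160 CPM in TG and at 220, 181, 180 and 191 CPM in WT. All TG values lay under all WT values. Its log2 fold change was -0.37 ± 0.10 (adjusted p = 0.0194), or -0.55 without and -0.20 with Y-linked counts. The triose isomerase Tpi1 (chromosome 6) stood at 102, 109, 116 and 121 CPM in TG and at 162, 118, 139 and 129 CPM in WT. TG replicate 4 exceeded WT replicate 2, and the estimate of -0.29 ± 0.10 missed the threshold (adjusted p = 0.0638), although DESeq2 (0.0479) and limma voom (0.0446) placed it just below. Of the phosphofructokinase isozymes, which catalyse the committed step, Pfkp averaged 23.4 and 31.2 CPM (log2 fold change -0.42 ± 0.17, adjusted p = 0.118). Pfkm averaged 5.22 and 3.54 CPM (0.55 ± 0.21, adjusted p = 0.0805), the only positive estimate in the upper chain with TMM factors, and Pfkl averaged 26.1 and 28.4 CPM (-0.12, adjusted p = 0.403). Gpi1 and Aldoc also did not pass, with log2 fold changes of -0.06 and -0.32.

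Fructose 2,6-bisphosphate is the main allosteric activator of phosphofructokinase, made and removed by the Pfkfb enzymes and broken down by Tigar. None of these 4 genes was called by edgeR, DESeq2 or limma voom, and 0 of 4 had an unadjusted p below 0.05 in any of them. Pfkfb4 stood at 14.4, 13.8, 18.8 and 11.8 CPM in TG and at 16.6, 17.2, 15.7 and 16.7 CPM in WT, and TG replicate 3 was above all WT libraries. The log2 fold changes were 0.10 for Pfkfb2, -0.05 for Pfkfb3, -0.17 for Pfkfb4 and 0.06 for Tigar. The 95% interval for Pfkfb3 ran from -0.58 to 0.47, so a change of that size was not detectable.

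Lower glycolysis, from glyceraldehyde 3-phosphate to pyruvate, had 5 tested genes, and 3 were called lower. Gapdh (ENSMUSG00000057666, chromosome 6, 125135289 to 125143518, minus strand), the NADH-forming dehydrogenase that is often used as a reference gene, stood at 60.8, 61.5, 74.2 and 79.6 CPM in TG and at 106, 74.6, 90.3 and 87.8 CPM in WT. TG replicate 4 lay above WT replicate 2, so the groups overlapped by that pair. The log2 fold change was -0.38 ± 0.12 (adjusted p = 0.0382), or -0.56 without and -0.21 with Y-linked counts. Pgk1 (ENSMUSG00000062070, chromosome X, 105230706 to 105247305, plus strand), the first ATP-forming kinase of the chain, stood at 25.2, 25.7, 32.2 and 28.8 CPM in TG and at 42.4, 33.6, 35.7 and 35.5 CPM in WT. These did not overlap, and the log2 fold change was -0.39 ± 0.10 (adjusted p = 0.0197), or -0.58 without and -0.22 with Y-linked counts.

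Eno1 (ENSMUSG00000063524, chromosome 4, 150321073 to 150337027, plus strand), the ubiquitous enolase, stood at 35.8, 38.5, 37.6 and 38.6 CPM in TG and at 50.2, 41.9, 47.3 and 43.0 CPM in WT, again with no overlap. Its log2 fold change was -0.28 ± 0.09 (adjusted p = 0.0377), -0.31 without and -0.25 with Y-linked counts. Pyruvate kinase Pkm stood at 77.2, 70.1, 81.2 and 81.0 CPM in TG and at 99.9, 84.0, 89.7 and 90.1 CPM in WT. Each TG library was below each WT library, yet the log2 fold change of -0.23 ± 0.09 did not pass (adjusted p = 0.0748), and gene counts do not separate its M1 and M2 isoforms. Pgam1, the mutase between Pgk1 and enolase, averaged 9.51 and 10.5 CPM (-0.14, adjusted p = 0.495). Eno2, the neuronal enolase, had 1 count in all libraries together and was not tested.

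Divided by transcript length, as parts per 1e6 of all such values, the highest members in WT were Ldha at 129 ± 19.6 and Aldoa at 110 ± 12.7 (SD, n = 4). Tpi1 at 73.8 ± 12.6, Pdha1 at 58.4 ± 9.52 and Gapdh at 54.6 ± 8.98 followed, then Pkm at 32.2 ± 4.93 and Gpi1 at 29.7 ± 6.42. The ranges of neighbouring genes in this order overlapped across the WT libraries except Aldoa with Tpi1 and Gapdh with Pkm. Within each WT library the same order held, except that Gapdh exceeded Pdha1 in replicate 1. The summed level of 18 core enzymes, the hexokinases to lactate dehydrogenase, was taken per library with no test. In TG it was 835, 822, 947 and 936 CPM and in WT 1220, 995, 1066 and 1044 CPM, so all TG sums lay below all WT sums. The TG mean of 885 ± 65.6 CPM was 18.1% below the WT mean of 1081 ± 96.9 CPM. With scaling by total counts the sums were 861 to 1035 CPM in TG and 934 to 1171 CPM in WT, which overlap, and the TG mean was 11.1% lower. On the scale per transcript length, which uses no TMM factors either, they were 413 to 528 in TG and 437 to 601 in WT, which overlap too, and the TG mean was then 7.76% lower. Mitochondrial counts and enterocyte markers, given above, also differed between the groups, and their part in these sums was not tested.

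**Figure D2:**
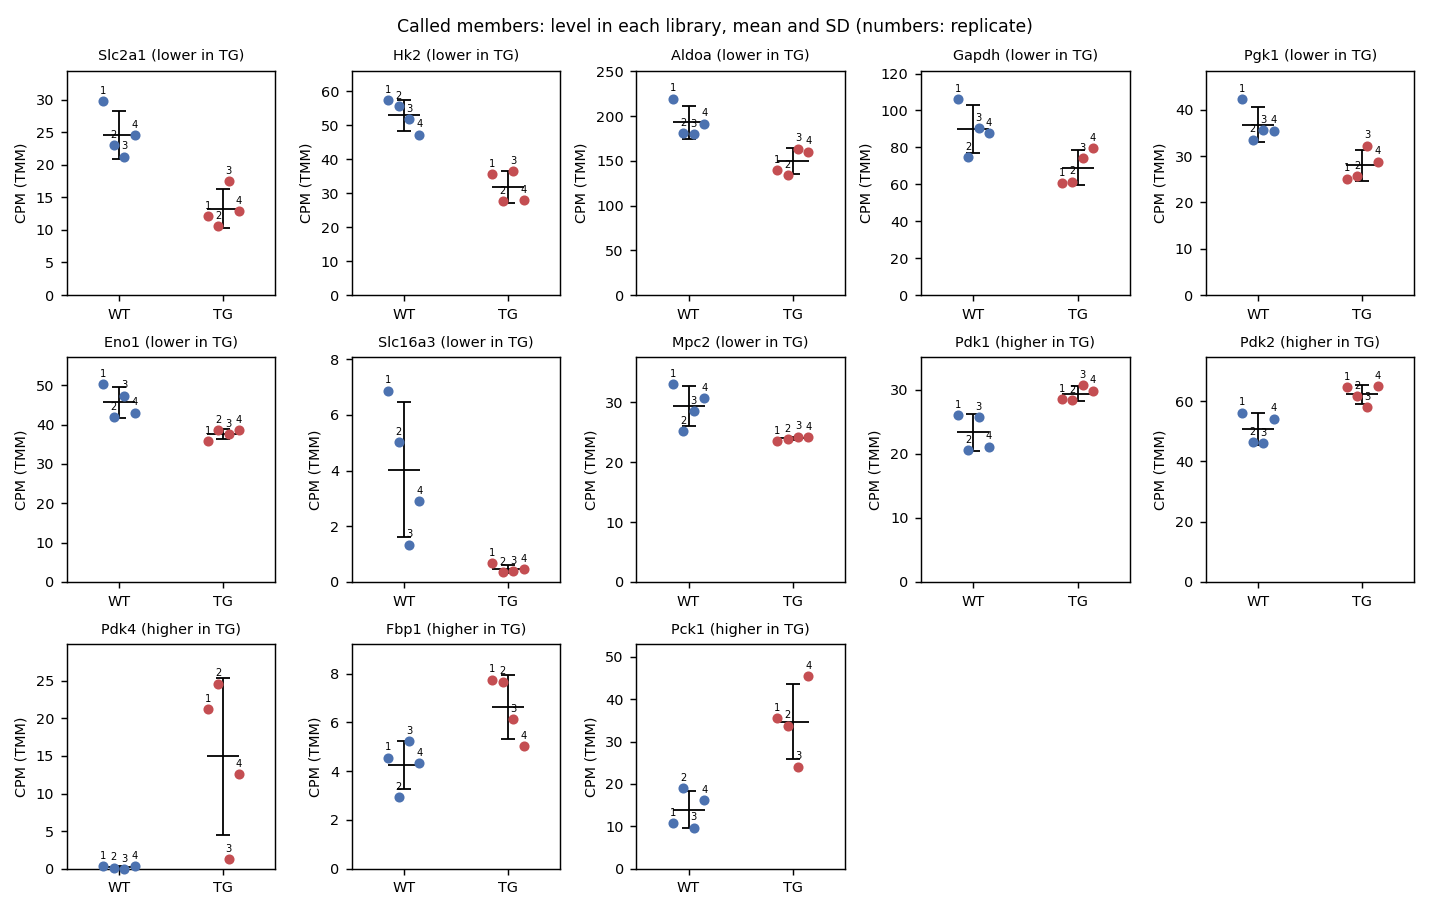
CPM (y axis, from 0, TMM-scaled) of the 13 called members in each library by group (x axis), with points for libraries, numbers for replicates, and bars for the mean and SD of 4. The ranges are apart for all but Gapdh and Fbp1, and TG replicate 3 of Pdk4, at 1.24 CPM, is far below the other TG libraries.

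Of the lactate genes, 3 were tested and an exporter was called lower. Slc16a3 (MCT4, ENSMUSG00000025161, chromosome 11, 120838846 to 120851694, plus strand), the low-affinity transporter typical of lactate-exporting cells, had 11, 5, 7 and 6 counts in the TG libraries and 86, 72, 20 and 39 in the WT libraries. In CPM this was 0.688, 0.352, 0.395 and 0.456 in TG and 6.87, 5.01, 1.34 and 2.90 in WT, so the lowest WT library exceeded the highest TG library while WT itself spread widely. The log2 fold change was -3.05 ± 0.49 (adjusted p = 0.0021), and WT exceeded TG 8.31-fold (95% interval 3.99 to 17.3). It was -3.47 without and -2.29 with Y-linked counts. Exons of Csnk1d on the other strand cover 40.06% of the exon bases of Slc16a3. Csnk1d had 12702 counts in all and a log2 fold change of 0.00 (adjusted p = 0.989), and without a stated strand setting the reads of such partners cannot be told apart.

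Ldha, the lactate dehydrogenase subunit that favours lactate formation, stood at 186, 169, 217 and 221 CPM in TG and at 268, 213, 235 and 233 CPM in WT. TG replicates 3 and 4 lay above WT replicate 2, and the log2 fold change of -0.26 ± 0.11 did not pass (adjusted p = 0.0995). Slc16a1 (MCT1), the high-affinity transporter, averaged 26.0 ± 1.87 and 32.7 ± 8.22 CPM (-0.33 ± 0.15, adjusted p = 0.139). Ldhb, the heart-type subunit, had 19 counts in all and was not tested.

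At the entry to the mitochondrion, the pyruvate carrier subunit Mpc2 (ENSMUSG00000026568, chromosome 1, 165287125 to 165308785, plus strand) stood at 23.6, 23.9, 24.3 and 24.2 CPM in TG and at 33.0, 25.1, 28.6 and 30.7 CPM in WT. Ranges were apart, and the log2 fold change of -0.29 ± 0.10 was just called (adjusted p = 0.0497), with -0.29 in the libraries both without and with Y-linked counts. The call was lost with RLE in place of TMM factors (adjusted p = 0.0508) and in 7 of 8 fits that left out a library. Its partner Mpc1 averaged 7.34 and 7.71 CPM (-0.07, adjusted p = 0.832). The catalytic subunit Pdha1 stood at 190, 205, 184 and 190 CPM in TG and at 190, 182, 186 and 211 CPM in WT. Its ranges overlapped throughout, and the log2 fold change of -0.00 had a 95% interval of -0.18 to 0.18. Pdhb and Dlat, the other subunits of the complex in the set, gave -0.07 and -0.10 (adjusted p = 0.598 and 0.479). The shared subunit Dld, outside the set, was called lower and is given below.

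Of the 4 kinases that switch the complex off, 3 were higher in TG. Pdk1 (ENSMUSG00000006494, chromosome 2, 71703488 to 71734202, plus strand) stood at 28.5, 28.4, 30.8 and 29.9 CPM in TG and at 26.0, 20.5, 25.7 and 21.1 CPM in WT, a log2 fold change of 0.33 ± 0.10 (adjusted p = 0.0335). Pdk2 (ENSMUSG00000038967, chromosome 11, 94914929 to 94932242, minus strand), the most abundant of the kinases, stood at 64.6, 61.6, 58.0 and 64.9 CPM in TG and at 56.2, 46.5, 46.1 and 54.2 CPM in WT, a log2 fold change of 0.30 ± 0.09 (adjusted p = 0.0352). Neither overlapped between groups, and the values without and with Y-linked counts were 0.29 and 0.37 for Pdk1 and 0.30 and 0.29 for Pdk2. With 1 library left out, Pdk1 was called in 2 of 8 fits and Pdk2 in 3 of 8, and Pdk1 was not called with scaling by total counts (adjusted p = 0.0543).

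Pdk4 (ENSMUSG00000019577, chromosome 6, 5483097 to 5496339, minus strand), the kinase induced by fasting and fatty acids, had 340, 350, 22 and 166 counts in the TG libraries and 4, 2, 0 and 5 in the WT libraries. That is 21.3, 24.6, 1.24 and 12.6 CPM in TG and 0.320, 0.139, 0 and 0.372 CPM in WT. Every TG library exceeded every WT library, but the TG libraries spread widely and replicate 3 was low. The log2 fold change was 6.16 ± 1.28 (95% interval 3.06 to 9.25, adjusted p = 0.0236), a 71.4-fold difference with an interval of 8.36 to 610, and 6.63 without and 5.17 with Y-linked counts. Limma voom did not call it (adjusted p = 0.380), and it was called in 2 of 8 fits that left out a library. Pdk3 averaged 13.6 and 14.7 CPM (-0.11, adjusted p = 0.540). The phosphatases Pdp1 and Pdp2, which reactivate the complex, did not pass either, at -0.35 and -0.10 (adjusted p = 0.231 and 0.523).

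Hif1a, the oxygen-regulated subunit of HIF-1, which is controlled mainly at the protein level, stood at 29.4, 31.9, 31.8 and 26.5 CPM in TG and at 40.7, 33.1, 34.1 and 34.5 CPM in WT. The TG range lay below the WT range, and the log2 fold change was -0.25 ± 0.10 (adjusted p = 0.0875, not called). Egln3, a prolyl hydroxylase that marks HIF for degradation and is itself induced by it, had 49 counts in all. Its values of 0.0704 to 0.760 CPM in TG and 0.0799 to 1.18 CPM in WT did not pass the filter on low counts in the fit to all 8 libraries. With no filter its log2 fold change was 0.047 (adjusted p = 0.973), and in a separate fit to the libraries with Y-linked counts it was 1.98 (unadjusted p = 0.0201, adjusted p = 0.185).

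Gluconeogenesis runs the path backwards, and 2 of 3 tested genes were higher in TG. Pck1 (ENSMUSG00000027513, chromosome 2, 172994744 to 173001066, plus strand), the cytosolic carboxykinase that commits carbon to glucose or glycerol synthesis, stood at 35.6, 33.8, 24.1 and 45.5 CPM in TG and at 10.8, 18.9, 9.70 and 16.1 CPM in WT. The ranges were apart, and the log2 fold change was 1.32 ± 0.25 (95% interval 0.75 to 1.88, adjusted p = 0.0091), a 2.49-fold difference (1.68 to 3.69). It was 1.21 without and 1.42 with Y-linked counts. Fbp1 (ENSMUSG00000069805, chromosome 13, 63012567 to 63036263, minus strand), the phosphatase that opposes phosphofructokinase, stood at 7.76, 7.67, 6.15 and 5.02 CPM in TG and at 4.56, 2.92, 5.22 and 4.32 CPM in WT. TG replicate 4 was below WT replicate 3, and the log2 fold change was 0.65 ± 0.20 (adjusted p = 0.0409), with 1.05 without and 0.23 with Y-linked counts. The mitochondrial carboxykinase Pck2 stood at 71.8, 76.8, 42.7 and 38.2 CPM in TG and at 59.2, 52.8, 40.8 and 37.4 CPM in WT, so replicates 1 and 2 were high in both groups. Its log2 fold change of 0.27 ± 0.27 did not pass (adjusted p = 0.521).

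Pck1 and Fbp1 are also genes of absorptive enterocytes. Without the abundant Anpep, the enterocyte markers summed to 122, 149, 232 and 266 CPM in TG replicates 1 to 4 and to 54.8, 58.9, 74.0 and 108 CPM in WT. The TG libraries with the highest marker sums were replicates 3 and 4. Pdk4 and Fbp1 were highest in TG replicates 1 and 2, and Pck1 was highest in replicate 4 and lowest in replicate 3. The part of enterocyte RNA in these differences was not tested.

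Within enzyme families, levels were compared as counts divided by the length of the canonical transcript, as each isozyme's share of its family in a library. Hk2 made up 43.6% ± 3.26 of the hexokinase level in TG and 55.1% ± 3.82 in WT, while Hkdc1 made up 20.1% ± 0.67 and 12.1% ± 2.21, with neither range overlapping. Eno1 held 88.6% ± 1.22 of the enolase level in TG and 95.7% ± 2.26 in WT, nearly all the rest being Eno3, the muscle-type enolase. Pdk4 held 9.08% ± 6.21 of the kinase level in TG and 0.16% ± 0.13 in WT, whereas the share of Pdk3 was 13.2% ± 1.84 in TG and 18.4% ± 0.84 in WT and that of Pdk2 overlapped. Slc16a3 was 1.76% ± 0.61 of the 2 monocarboxylate transporters in TG and 11.3% ± 6.57 in WT. The phosphofructokinase shares overlapped between groups for all 3 isozymes. These shares carry no test. The difference for Pdk4, 8.92 points, was 21.9 points with the union of all exons as the length, a choice made after seeing the data.

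**Figure D3:**
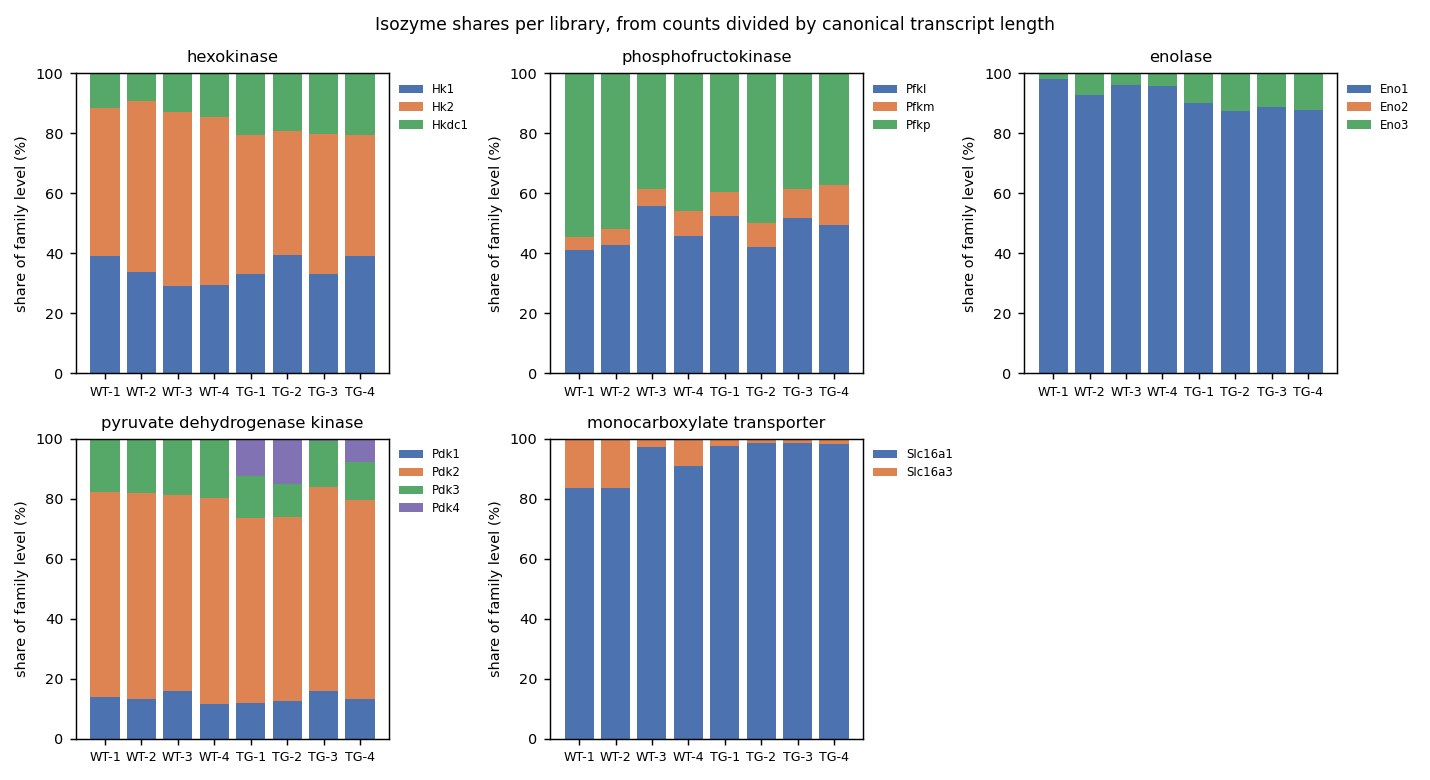
Stacked bars of each isozyme's share (y axis, percent) of its family level in each of the 8 libraries (x axis, group and replicate), from counts divided by transcript length. Hkdc1, Eno3 and Pdk4 take larger shares in TG libraries, and Pdk4 is nearly absent from TG replicate 3 and from WT.

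Other genes around the path were counted by list, and the share called is to be read against the 17.9% of all genes. Among further glycolysis, glucose and fructose genes, 5 of 19 tested were higher and 2 lower (36.8% called, median log2 fold change 0.24). The calls with the smallest p were Eno3 (1.27, adjusted p = 0.0109), the fructokinase Khk (0.53, adjusted p = 0.0186) and the monocarboxylate transporter Slc16a7 (0.42, adjusted p = 0.0232). Of 16 further gluconeogenesis and pyruvate genes, 1 was higher and 3 lower (25.0% called, median -0.21). These included the cytosolic aspartate aminotransferase Got1 (-0.74, adjusted p = 0.0016), the dehydrogenase subunit Dld shared by pyruvate dehydrogenase (-0.32, adjusted p = 0.0172), and the bisphosphatase Fbp2 (0.44, adjusted p = 0.0209).

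In the pentose phosphate path, which makes NADPH and ribose from glucose 6-phosphate, 3 of 8 genes were lower (37.5% called, median -0.21), among them the NADPH-forming dehydrogenases Pgd (-0.44, adjusted p = 0.0125) and G6pdx (-0.43, adjusted p = 0.0224) and the epimerase Rpe (-0.27, adjusted p = 0.0486). Of 9 glycogen genes, 2 were lower, the synthase Gys1 (-0.45, adjusted p = 0.0210) and the phosphorylase Pygb (-0.30, adjusted p = 0.0248), with 22.2% called, near the background, and a median of -0.15. Among 19 oxygen-sensing genes and HIF targets outside the set, 2 were higher, Ndrg1 (0.48, adjusted p = 0.0093) and Mxi1 (0.49, adjusted p = 0.0232), and 1 was lower, P4ha1 (-0.52, adjusted p = 0.0154). Their median was 0.14, and 15.8% were called, near the background. Of 14 transcriptional regulators, 4 were higher (28.6% called, median 0.32), including Mycn (1.32, adjusted p = 0.0061), the mitochondrial coactivator Ppargc1a (1.14, adjusted p = 0.0075) and the glucose-sensing factor Mlxip (0.46, adjusted p = 0.0082).

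Hk2, Slc2a1, Slc16a3 and Pck1 were called in 8 of 8 fits that left out 1 library. Aldoa and Pgk1 lost the call without TG replicate 1 and without TG replicate 2. The other called genes were called in few of these fits: Pdk2 in 3 (without TG replicate 3, WT replicate 1 or WT replicate 4), Eno1 in 2 (WT replicate 2 or 4), Gapdh in 2 (TG replicate 4 or WT replicate 2) and Mpc2 in 1 (WT replicate 2). Fbp1 was called in 2 (TG replicate 4 or WT replicate 3), as were Pdk1 (WT replicate 1 or 3) and Pdk4 (TG replicate 3 or 4). Slc16a3 passed the filter on low counts through WT alone and Pdk4 through TG alone, so their calls in these fits are no separate support. The direction of all 13 called genes was the same in the 20 alternative settings. In a separate fit to the libraries without Y-linked counts, 3 members were called higher and 5 lower, against 500 and 638 of 12061 genes. In one to those with Y-linked counts edgeR called none of 39 tested members, against 113 higher and 104 lower of 12024 genes. There, 9 members, Egln3 among them, had an unadjusted p below 0.05, a count not taken over all genes. No member's difference between the 2 kinds of library passed the edgeR interaction test after adjustment. In that test 3 of 38 members had an unadjusted p below 0.05 (Hk1, Slc2a1 and Fbp1), against 684 of 11929 genes.

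**Figure D4:**
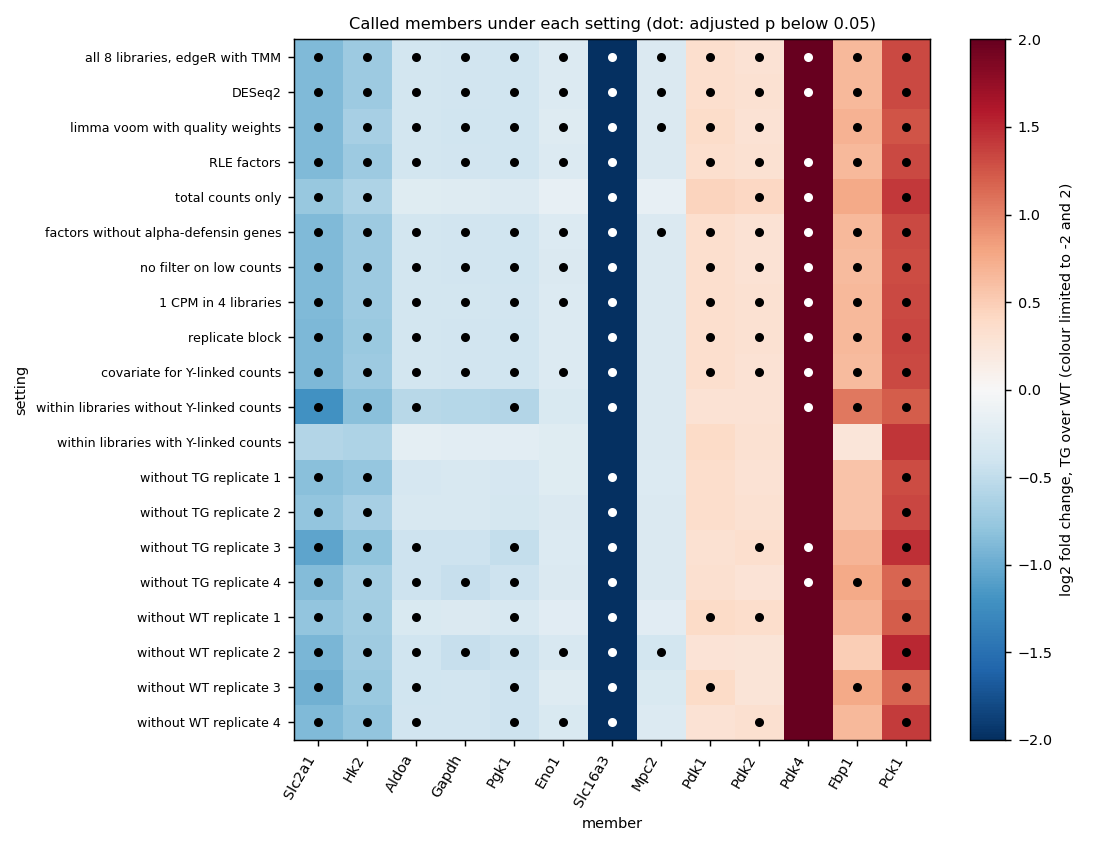
Log2 fold change (colour, limited to -2 and 2) of the 13 called members (x axis) under the settings tried (y axis), with a dot where the adjusted p was below 0.05. The direction of each column is the same in every row, and Slc2a1, Hk2, Slc16a3 and Pck1 keep their dots except within the libraries with Y-linked counts.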

How the data were processed

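RNA of FACS-sorted Paneth cells was prepared with a TruSeq stranded mRNA kit. The submitters' processing notes name FastQC 0.12.0, STAR 2.7.0a, DESeq2 and build mm39; the counting tool, its strand setting and the handling of multi-mapped reads are not stated there or in the study. The authors deposited raw counts per Ensembl gene for 8 libraries (13107397 to 16218434 counts each), and 54749 of 55414 IDs matched a GENCODE M39 symbol. The 42 member genes and all lists were chosen with earlier results of these data known. Counts were filtered by group (filterByExpr), scaled with TMM factors and tested with edgeR 4.0.16 (R 4.3.3; robust quasi-likelihood, Benjamini-Hochberg at 0.05 over 11929 genes); SE and 95% intervals come from this fit. CPM are counts per 1e6 of the TMM-scaled library size. Named genes were all called members, the most abundant uncalled member of each role, and from each other list up to 3 calls with the smallest p; the remaining members are given in brief. Alternatives were DESeq2 1.42.0, limma 3.58.1 voom with quality weights, other scaling (factors also without 28 alpha-defensin genes) and filters, a replicate block, Y-linked status as a covariate, separate fits to each kind of library, each library left out, and counts of 27 annotated copies added to 9 members. Scripts were tested on simulated data. No 2 libraries of a group agreed within sampling noise (chi-square per degree of freedom at least 5.20). Exons of 24 members overlap a gene on the other strand. Intervals and floors from counts cover counting error only. Some items are not reported here.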

Additional observations from a re-analysis of the deposited data

Results flagged for a closer look

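In 76 groups of 4 libraries, one for each tested member and genotype, a library far from the other 3 was sought with Dixon's test, which flags about 1 group in 20, or 3.8 here, by chance. Only 2 were found. Pfkp in TG had 30.5 CPM in replicate 2 against 20.7 to 21.2 CPM in the other 3 libraries, a gap of 0.946 of the range. Pfkp, not called with all libraries, was called lower without TG replicate 2, and also without WT replicate 3, with Y-linked status as a covariate, with the replicate block and with no filter on low counts. Pdp1 in WT had 9.03 CPM in replicate 1 against 5.57 to 6.03 CPM, a gap of 0.868 of the range. Pdp1 was not called with all libraries.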

How the results depend on the processing

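Depth limits Slc16a3 in TG, Pdk4 in WT and the 4 untested members. The 5 higher and 8 lower members became 3 and 3 with total counts only, 3 and 5 within the libraries without Y-linked counts, 0 and 0 within those with them, and 1 to 3 and 3 to 11 when 1 library was left out. Without TG replicate 1 they were 1 and 3, without TG replicate 2 they were 1 and 4, without WT replicate 2 they were 1 and 11, and without WT replicate 4 they were 2 and 6. Leaving out any other library gave 3 higher, with 5 lower without TG replicate 3 or WT replicate 1. Over all genes, 985 higher and 1151 lower became 500 and 638 without and 113 and 104 with Y-linked counts, and 485 to 1045 and 550 to 1183 with 1 library left out, the lowest without TG replicates 1 and 2. Total counts only gave 262 lower. Hk1 turned to 0.070 in the separate fit to the libraries with Y-linked counts. Pdha1, at -0.00, turned to 0.12 with total counts, 0.0022 with a minimum of 1 CPM in 4 libraries and 0.081 within the libraries without Y-linked counts, and ran from -0.034 to 0.043 with 1 library left out. The core sum, 18.1% lower in TG, was 11.1% lower with total counts and 7.76% lower (-7.76) per length, where TMM factors are also left out. With the union of exons as length, a choice made after seeing the data, the share of Eno1 changed by -10.5 points in place of -7.18 and that of Pdk4 by 21.9 in place of 8.92. The cause of these shifts was not tested, and the fits that leave libraries out also hold fewer of them. Deviations from the group mean correlated at 0.08, 0.07, 0.29 and 0.23 between same-numbered TG and WT libraries. Between libraries of unlike number they correlated at -0.19 to 0.24. These values do not settle whether replicate numbers pair the libraries. The replicate block called 5 members higher and 7 lower, with Eno1 (adjusted p = 0.0559) and Mpc2 (0.0628) lost and Pfkp (0.0260) gained. DESeq2 called 5 higher and 9 lower members and limma voom 4 and 9.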
